A study of Mus musculus with 12 samples.

Results

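Neutrophils carry many of their antimicrobial proteins in granules that are filled in sequence as the cell matures. The 10 genes described here are grouped by stage of that maturation, and not all of them are granule genes. They are 4 early granule genes (Elane, Mpo, Prtn3 and Ctsg), 3 late granule genes (Camp, Ngp and Ltf) and 3 genes of the mature cell (S100a8, S100a9 and Ly6g), taken as a named list from the 35434 genes of the count table. All 10 passed the filter on low counts and were among the 15269 genes tested. Their levels were read in 12 tumours of the mouse triple-negative breast cancer cell line 4T1, each grown under the skin of the back of a different female BALB/c mouse aged 6 to 8 weeks, with 3 mice in each of 4 groups. MC tumours came from mice kept at ambient altitude, about 1500 m, and given vehicle, and MI tumours from mice at the same altitude given IOX2, an inhibitor of the oxygen-sensing prolyl hydroxylase PHD2, at 10 mg/kg into the peritoneum. HC and HI tumours came from mice in a hypobaric chamber set to 3500 m that received vehicle or IOX2. Mice had 3 days in their housing before inoculation, injections ran daily for 10 days from day 9, and all tumours were taken on day 22. Because the chamber housed HC and HI mice alone, altitude and chamber housing cannot be told apart. The questions addressed are whether these genes differed with altitude, with IOX2, or with their combination.

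The primary granules made at the promyelocyte stage hold myeloperoxidase (Mpo), which turns hydrogen peroxide and chloride into hypochlorous acid, and 3 serine proteases, neutrophil elastase (Elane), proteinase 3 (Prtn3) and cathepsin G (Ctsg). Secondary granules, made later at the myelocyte and metamyelocyte stages, hold the cathelicidin precursor (Camp), the iron-binding protein lactoferrin (Ltf) and the cystatin-related neutrophilic granule protein (Ngp). Transcription of most granule genes stops before the cell leaves the bone marrow, so a mature neutrophil in tissue contains the proteins but little of their mRNA. S100a8 and S100a9 encode the subunits of calprotectin, the most abundant cytosolic protein of neutrophils, which binds zinc, manganese and calcium and is also made by monocytes and by stressed keratinocytes. Ly6g encodes a surface protein used to mark mouse neutrophils. 4T1 tumours secrete granulocyte colony-stimulating factor and are known for expanding the neutrophils of their host.

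The stretches of 250 bases ahead of the start site are shown for the 4 early granule genes and the calprotectin pair, because these are the members whose levels correlated most across tumours, with Prtn3 as the early gene whose correlations did not pass the test. Sequences are from RefSeq, build GRCm38.p6, written 5′ to 3′ on the strand of the gene. Capitals mark matches on either strand to GAGGAA (the core bound by PU.1 and other ETS factors), TTGCNNAA (C/EBP) and TGTGGT (RUNX), and on the gene's strand to TATAAA. They lie at chr10:79886062-79886311 on the plus strand (Elane), chr11:87793534-87793783 plus (Mpo), chr10:79879417-79879666 plus (Prtn3), chr14:56102575-56102824 minus (Ctsg), chr3:90668821-90669070 plus (S100a8) and chr3:90695722-90695971 minus (S100a9).
Elane: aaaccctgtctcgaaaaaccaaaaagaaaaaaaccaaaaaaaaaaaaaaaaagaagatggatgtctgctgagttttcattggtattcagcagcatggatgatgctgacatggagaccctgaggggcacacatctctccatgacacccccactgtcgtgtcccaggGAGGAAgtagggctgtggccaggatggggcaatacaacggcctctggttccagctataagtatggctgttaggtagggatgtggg
Mpo: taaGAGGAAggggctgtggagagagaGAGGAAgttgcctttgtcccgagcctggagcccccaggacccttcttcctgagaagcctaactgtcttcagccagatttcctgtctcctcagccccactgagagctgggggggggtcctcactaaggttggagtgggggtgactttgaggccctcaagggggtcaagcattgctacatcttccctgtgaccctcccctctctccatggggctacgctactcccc
Prtn3: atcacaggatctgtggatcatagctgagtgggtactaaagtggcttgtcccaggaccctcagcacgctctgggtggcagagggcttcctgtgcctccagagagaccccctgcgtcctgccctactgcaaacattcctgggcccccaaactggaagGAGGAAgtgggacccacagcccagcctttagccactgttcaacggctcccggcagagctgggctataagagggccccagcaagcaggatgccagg
Ctsg: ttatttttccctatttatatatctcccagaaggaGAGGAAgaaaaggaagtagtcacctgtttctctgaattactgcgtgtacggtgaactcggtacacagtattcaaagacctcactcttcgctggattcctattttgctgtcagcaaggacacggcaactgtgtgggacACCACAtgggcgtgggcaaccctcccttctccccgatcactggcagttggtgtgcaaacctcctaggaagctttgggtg
S100a8: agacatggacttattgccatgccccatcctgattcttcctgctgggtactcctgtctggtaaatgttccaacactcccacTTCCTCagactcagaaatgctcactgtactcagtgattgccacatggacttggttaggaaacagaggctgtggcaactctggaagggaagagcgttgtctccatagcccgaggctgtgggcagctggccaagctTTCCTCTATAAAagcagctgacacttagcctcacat
S100a9: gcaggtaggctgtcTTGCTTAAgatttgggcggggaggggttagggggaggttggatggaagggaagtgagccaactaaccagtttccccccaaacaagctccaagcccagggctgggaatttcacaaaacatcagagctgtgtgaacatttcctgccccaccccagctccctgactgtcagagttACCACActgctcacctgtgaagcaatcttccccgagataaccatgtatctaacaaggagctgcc

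GAGGAA was found in all 4 early granule promoters and in 7 of the 10 members, against 23.1% of the 27025 promoters of this length. The longer form GAGGAAGT, which contains GAGGAA and was picked after these sequences had been seen, was in 5 members (Elane, Mpo, Prtn3, S100a8 and Ly6g) against 2.44% of promoters. TTGCNNAA was in 4 members (Ngp, Ltf, S100a9 and Ly6g) against 9.55%, TGTGGT in Ctsg and S100a9 against 14.2%, and TATAAA in S100a8 and Ly6g against 8.12%. In S100a8 the reverse complement of GAGGAA ended 31 bases before the start and TATAAA began directly after it, at base 30, so the capitals run together. Elane lies next to Prtn3 on chromosome 10, and S100a8 next to S100a9 on chromosome 3. The Elane and Prtn3 windows thus share both a neighbourhood and the letters GAGGAAGT. These matches describe letters in the window and show no binding.

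Per gene length, the 10 mRNAs spanned a wide range of levels. The mean FPKM (fragments scaled by gene length and library total) over the 12 tumours was 140.4 for S100a9 and 78.5 for S100a8, followed by 7.68 for Ngp and 2.71 for Ltf. Prtn3 stood at 1.23, Camp at 1.14, Ly6g at 0.493, Mpo at 0.276, Ctsg at 0.220 and Elane at 0.216. The calprotectin pair was therefore the only part of the list above 10 FPKM on average, and Mpo, Ctsg and Elane rested on few fragments. The 10 genes together took between 0.00415% (HC1) and 0.0231% (HC3) of a library's counts. Mpo varied most among the members with a count in every tumour, with 162 times as much FPKM in MI1 as in HI2, and Prtn3 least, with 4.61 times as much in its highest tumour as in its lowest. MI1 was the highest of the 12 tumours for 6 members, including all 4 early granule genes, and HC3 for 3.

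**Figure D1:**
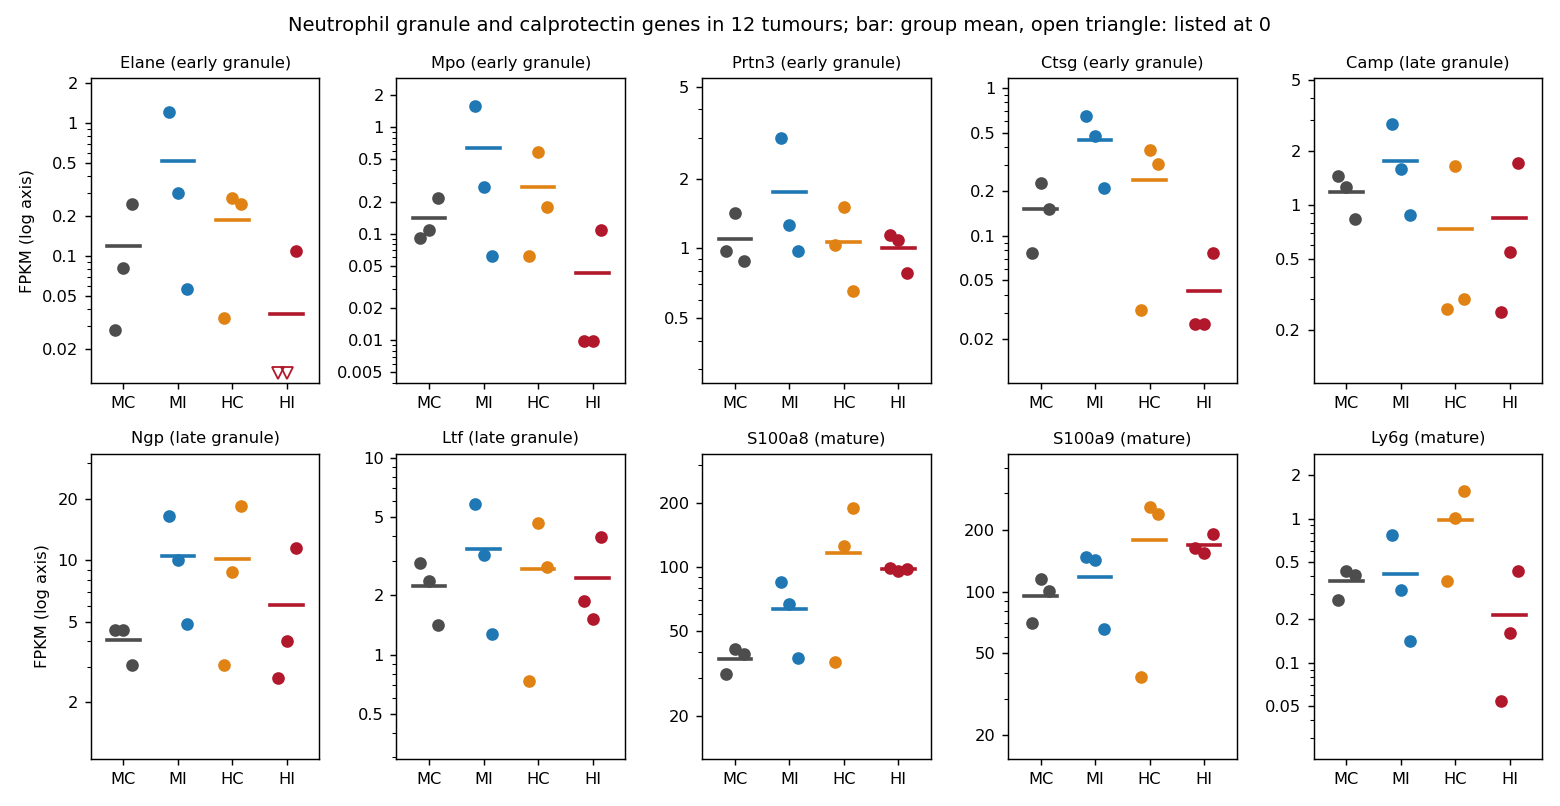
FPKM of each gene (log axes, 1 panel per gene) in the 3 tumours of each group, with bars at group means and open triangles for values listed at 0. MI1 is the top point in all 4 early granule panels, and the S100a8 points of HI lie close together between 95.5 and 98.7 FPKM while those of HC run from 35.9 to 188.4.

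Libraries held 31661685 to 40019343 counts, HC1 the fewest and the others at least 37913875. A count of 0 allows up to 3 counts, which equals 0.0728 to 0.0917 CPM (counts scaled to library size, with TMM factors) by library, for counting error only. Libraries that stood apart were MI1, whose 8 B cell and plasma cell markers summed to 724 CPM against 2.39 to 18.8 CPM in the other 11, and HC1, whose 6 fat cell markers summed to 541.6 CPM against 36.8 to 358.3 CPM in the others. The B cell list was drawn up after the values had been seen. The 7 epithelial markers, Epcam, Krt8 and Krt18 among them, summed to 3280 to 4367 CPM in every tumour. In bulk tumour RNA, fewer neutrophils and less mRNA per neutrophil cannot be told apart.

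The early granule genes were lowest in HI and highest in MI. Mpo counts were 9, 11 and 22 in the MC tumours, 158, 28 and 6 in MI, 5, 59 and 18 in HC, and 1, 1 and 11 in HI. Scaled for depth, Mpo in CPM averaged 0.355 ± 0.179 for MC, 1.62 ± 2.09 for MI, 0.705 ± 0.702 for HC and 0.108 ± 0.143 for HI (SD, 3 mice each). MI1 alone supplied most of the MI mean, and MI3 lay below the highest HI tumour, so the groups overlapped. Mpo overlaps the predicted gene Gm34064 in the GRCm38.p6 annotation, and fragments of the overlap cannot be told apart where counting ignores strand.

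Ctsg counts were 3, 9 and 6 in MC, 25, 19 and 8 in MI, 1, 15 and 12 in HC, and 1, 1 and 3 in HI. In CPM this gave 0.152 ± 0.0758 for MC, 0.442 ± 0.204 for MI, 0.241 ± 0.185 for HC and 0.0418 ± 0.0285 for HI (SD, 3 mice each). Every MI tumour lay above every HI tumour. Every MI tumour also lay above every MC tumour, by little, since the nearest were at 0.228 and 0.227 CPM. Elane, the least abundant member, had 1, 3 and 9 counts in MC, 43, 11 and 2 in MI, 1, 10 and 9 in HC, and 0, 0 and 4 in HI. For the HI1 and HI2 tumours the count of 0 allows up to 0.0783 and 0.0740 CPM, within the range of MC.

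Prtn3 was likewise lowest in HI and highest in MI, with a narrower span of group means, from 0.977 to 1.70 CPM. It stood at 0.932, 1.39 and 0.865 CPM in MC, 2.90, 1.19 and 1.03 in MI, 0.978, 1.47 and 0.649 in HC, and 1.15, 1.04 and 0.747 in HI. Leaving MI1 aside, its 11 values lay between 0.649 and 1.47 CPM, and HI1 and HI2, which had 0 or 1 count of the other 3 early genes, held 44 and 42 counts of Prtn3.

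Of the 4 comparisons of 2 groups, altitude under IOX2 had the largest median difference of the early genes, -3.50 on the log2 scale. The log2 difference of HI against MI was -3.31 for Ctsg (SE 0.84, 95% interval -5.14 to -1.47), -3.86 for Mpo (SE 1.25), -3.70 for Elane (SE 1.31) and -0.80 for Prtn3 (SE 0.45). None passed edgeR's quasi-likelihood test with Benjamini-Hochberg adjustment over all 15269 genes, of which it called 0% here, with adjusted p of 0.193, 0.240, 0.261 and 0.395. DESeq2 gave Mpo an adjusted p of 0.0384 and Ctsg 0.0398, and limma-voom 0.364 and 0.267. Without MI1 the edgeR difference of Mpo was -1.96 (adjusted p = 0.469), that of Elane -2.21 (adjusted p = 0.498) and that of Ctsg -2.97 (adjusted p = 0.423).

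Ctsg is also expressed by mast cells. The 9 mast cell and basophil markers, none at 0 throughout, summed to 38.0 to 51.9 CPM in MC, 33.2 to 41.3 in MI, 22.6 to 30.0 in HC and 24.3 to 39.2 in HI, and their part in the Ctsg difference was not tested. The 8 eosinophil markers, with Prg2 and Epx among them, summed to 17.6 CPM in MI1 and to at most 9.40 in any other tumour. In MI1, the tumour highest in all early granule genes, that sum and the B cell sum were both the highest of the 12, and their part in its values was not tested.

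The late granule genes did not separate the groups, except for Ngp between MI and MC. Ngp stood at 5.19, 5.30 and 3.59 CPM in MC, 19.0, 11.4 and 6.13 in MI, 3.45, 10.2 and 21.9 in HC, and 3.16, 4.56 and 13.1 in HI. All 3 MI tumours lay above all 3 MC tumours, with a log2 difference of 1.38 (SE 0.66) that edgeR's test did not call (adjusted p = 0.492). HC and HI each spanned several-fold, and their ranges overlapped with every other group.

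Ltf stood at 7.86, 6.51 and 3.89 CPM in MC, 15.7, 8.54 and 3.76 in MI, 1.96, 12.7 and 7.79 in HC, and 5.27, 4.07 and 10.7 in HI. Its group means ran from 6.09 to 9.33 CPM, each less than 1 SD from its neighbour in the order. Camp stood at 0.856, 0.757 and 0.509 CPM in MC, 1.68, 0.922 and 0.570 in MI, 0.153, 0.989 and 0.182 in HC, and 0.157, 0.321 and 1.02 in HI. Low Camp came with high Ngp in 1 tumour, HC3, where the FPKM of Ngp was 62.2 times that of Camp, against 3.13 to 11.7 times in the other 11.

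The calprotectin genes were higher in the chamber groups, with 1 exception. S100a8 stood at 12.0, 16.1 and 15.4 CPM in MC, 32.9, 25.6 and 15.7 in MI, 13.6, 49.1 and 75.2 in HC, and 39.9, 36.7 and 37.6 in HI. HC1 lay inside the MC range while HC2 and HC3 lay above every ambient tumour. The HI tumours hardly differed from each other and all lay above MI. The mean was 14.5 ± 2.17 CPM for MC, 24.7 ± 8.60 for MI, 46.0 ± 30.9 for HC and 38.1 ± 1.63 for HI (SD, 3 mice each). In the order MC, MI, HI, HC, only MI and HI did not overlap.

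S100a9 followed the same order of group means. It stood at 36.3, 60.2 and 53.3 CPM in MC, 75.8, 72.6 and 37.1 in MI, 19.5, 135.5 and 127.1 in HC, and 88.4, 79.4 and 97.5 in HI. HC1 was the lowest of all 12 tumours and HC2 the highest. The FPKM ratio of S100a9 to S100a8 was 2.25 to 2.79 in MC, 1.73 to 2.12 in MI, 1.07 to 2.07 in HC and 1.62 to 1.94 in HI, so every MC tumour had relatively more S100a9 than the other 9.

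The log2 difference of S100a8 was 1.67 for HC against MC (SE 0.46, 95% interval 0.66 to 2.67) and 0.62 for HI against MI (SE 0.45, 95% interval -0.36 to 1.60). Averaged over both treatments, the altitude difference was 1.14 (SE 0.32, 95% interval 0.44 to 1.85). In edgeR's quasi-likelihood test these had Benjamini-Hochberg adjusted p of 0.249, 0.496 and 0.121, so S100a8 was not called. DESeq2 called it in HC against MC (adjusted p = 0.0145) and in the average (adjusted p = 0.00896), and limma-voom did not (adjusted p = 0.379 and 0.210). Without HC1, edgeR called S100a8 in the average, at a log2 difference of 1.36 and an adjusted p of 0.0334. HC1 was the chamber tumour lowest in S100a8, at 13.6 CPM, so leaving it out could only raise the difference. No other fit that left out 1 tumour called S100a8 in the average, with edgeR adjusted p up to 0.235. Without HC1 and MI1, a pair chosen after the values had been seen, the difference was 1.49 (edgeR adjusted p = 0.0348).

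S100a9 had log2 differences of 0.91 (SE 0.53) for HC against MC, 0.52 (SE 0.52) for HI against MI and 0.72 (SE 0.37) for the average, with edgeR adjusted p of 0.530, 0.644 and 0.345. IOX2 at simulated altitude gave differences of -0.27 for S100a8 (95% interval -1.25 to 0.70) and -0.09 for S100a9 (95% interval -1.23 to 1.05), intervals that hold doublings in both directions for S100a9.

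Keratinocytes make calprotectin under stress, and the tumours lay under the skin. The 12 keratinocyte markers summed to 137.1 to 166.9 CPM in MC, 131.3 to 202.9 in MI, 174.7 to 229.8 in HC and 125.7 to 268.7 in HI, mostly from Krt14. Krt5 was at 9.998 CPM in HC3 and 12.6 CPM in HI1, against at most 4.18 CPM elsewhere. Krt6a was at 2.00 CPM in HC3 and 5.72 CPM in HI1, and had 0 counts in 6 tumours. In HI2 and HI3, where Krt6a had 0 counts and Krt5 was at 0.123 and 0.0996 CPM, S100a8 was 36.7 and 37.6 CPM, next to 39.9 CPM in HI1. The part of keratinocytes in the S100a8 levels of the HI tumours, and of HC3, the tumour highest in S100a8, was not tested. The 12 monocyte and macrophage markers summed to 1299 to 1913 CPM in MC, MI and HC and to 1195 to 1479 CPM in HI. In the altitude average 10 of the 12 were lower, where 46.2% of all genes were higher. An unadjusted edgeR p under 0.05 was found for 6, against 17.3% of all genes. edgeR called 0, against 0.498% of all genes, and DESeq2 1, against 5.67%.

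Ly6g was scarce. It had 10, 16 and 15 counts in MC, 28, 12 and 5 in MI, 11, 37 and 57 in HC, and 2, 6 and 16 in HI. The mean was 0.346 CPM for MC, 0.382 for MI, 0.918 for HC and 0.20 for HI, and every pair of neighbours in that order overlapped. HC2 and HC3, the tumours highest in S100a8, were also the highest in Ly6g, but HI1 and HI2 held less Ly6g than any MC tumour. The log2 difference was 1.41 for HC against MC (SE 0.72) and -2.19 for HI against HC (SE 0.75, 95% interval -3.84 to -0.53), with edgeR adjusted p of 0.470 and 0.964. Ly6g belongs to a cluster of near-identical Ly6 genes on chromosome 15, between which short fragments may be split, so its counts are uncertain.

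**Figure D2:**
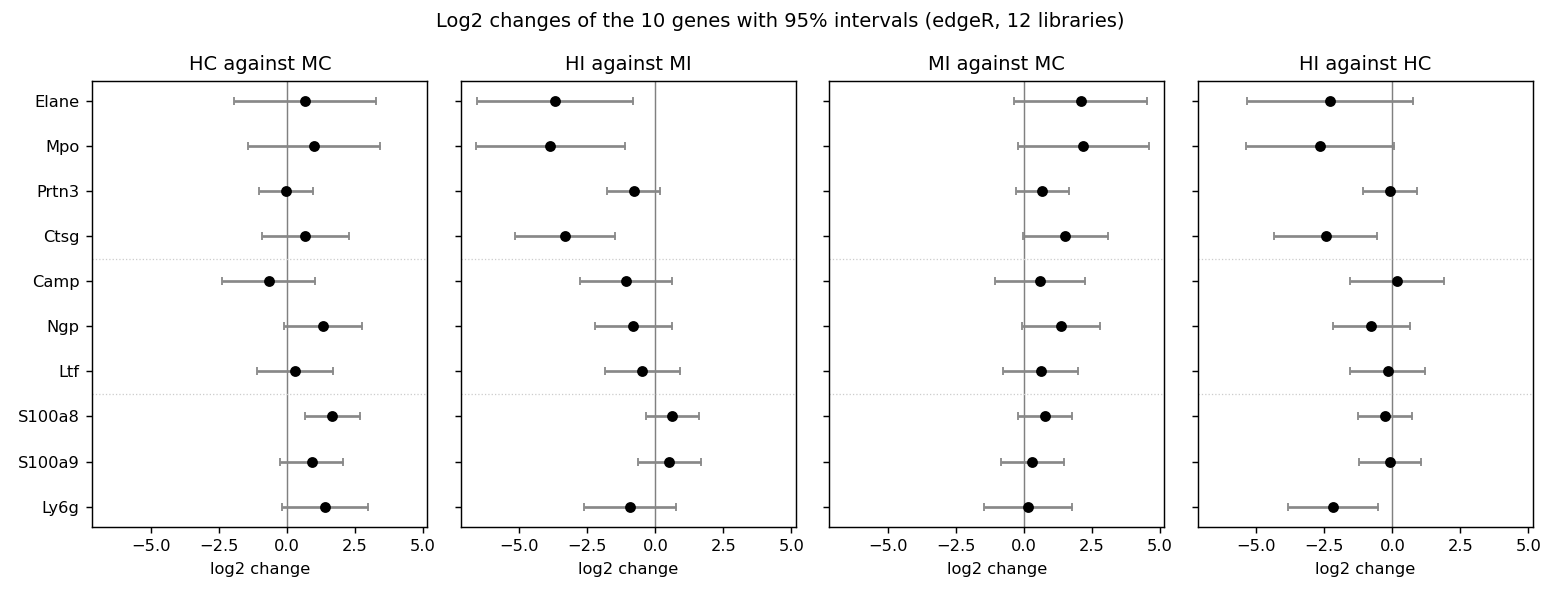
Log2 difference of each gene in the 4 comparisons of 2 groups (edgeR, points with 95% intervals, zero line in grey). In HI against MI, Elane, Mpo and Ctsg lie between -3.86 and -3.31 while S100a8 and S100a9 lie above 0, and in MI against MC all 10 points lie above 0.

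Across the list, edgeR called 0 of the 10 genes in each of the 6 comparisons. At simulated altitude with vehicle (HC against MC), 8 of the 10 were higher with a median log2 difference of 0.80, and the median over all genes tested was -0.01. The share of all genes called there was 0%, and 1 member had an unadjusted p under 0.05 against 12% of all genes. DESeq2 called 1 member, S100a8, against 2.06% of all genes. No member's groups were free of overlap, against 21.7% of all genes. Without HC1 the median was 1.28 and 4 members had an unadjusted p under 0.05, against 8.35% of all genes in that fit.

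At simulated altitude with IOX2 (HI against MI), the calprotectin pair was higher and the other 8 members lower, with a median of -0.87 against -0.01 over all genes. edgeR called 0% of all genes, and 3 members had an unadjusted p under 0.05 (Elane, Mpo and Ctsg) against 15.2%. DESeq2 called 2 members against 2.5% of all genes. Groups did not overlap for S100a8 and S100a9, both higher, against 8.03% of all genes higher without overlap, and for Ctsg, lower, against 6.6%. Without MI1 the median was -0.27, 3 members were higher, and 1 had an unadjusted p under 0.05, against 11.7% of all genes in that fit.

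IOX2 at ambient altitude (MI against MC) gave higher values for all 10 members, with a median log2 difference of 0.73 against 0.01 over all genes. edgeR called 0.0262% of all genes and no member. DESeq2 called no member and 0.131% of all genes, and 0 members against 9.39% had an unadjusted p under 0.05. Groups did not overlap for Ctsg and Ngp, both higher, against 4.75% of all genes. Without MI1, 9 of 10 were higher and the median was 0.22.

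IOX2 at simulated altitude (HI against HC) gave lower values for 9 of 10 members, all but Camp, with a median of -0.52 against 0.00 over all genes. edgeR called 0% of all genes and 2 members had an unadjusted p under 0.05, Ctsg (-2.46, SE 0.87) and Ly6g, against 4.85% of all genes. DESeq2 called 0 members and 0.144% of all genes, and no member was free of overlap against 11.4%. DESeq2 left the adjusted p of Elane, Mpo, Prtn3, Ctsg, Camp and Ly6g undefined here, so these were not assessed by it.

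In the altitude average, 4 members were higher and 6 lower. The mature genes were all higher (median 0.72) and the early granule genes all lower (median -1.37). edgeR called 0.498% of all genes here and no member, 2 members (S100a8 and Ctsg) had an unadjusted p under 0.05 against 17.3% of all genes, and DESeq2 called 1 member against 5.67%. No member had both chamber groups clear of both ambient groups, against 1.95% of all genes.

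The interaction, the altitude difference under IOX2 minus that with vehicle, was below 0 for all 10 members, with a median of -1.60 against -0.02 over all genes. Its sizes were -4.86 for Mpo (SE 1.66), -4.37 for Elane (SE 1.78), -3.99 for Ctsg (SE 1.12), -2.34 for Ly6g (SE 1.05) and -2.15 for Ngp (SE 0.92). These 5 had an unadjusted p under 0.05, against 8.21% of all genes, and an edgeR adjusted p of 0.596 each. edgeR called 0% of all genes, and DESeq2 called 0 members and 0.21% of all genes, with the adjusted p of Elane and Ctsg left undefined. Without MI1, Ctsg alone of the 10 kept an unadjusted p under 0.05 (-3.65, edgeR adjusted p = 0.777), against 4.88% of all genes in that fit, and the median was -1.18. These comparisons share tumours, so they are not separate evidence for each other.

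Across the 12 tumours the members fell into blocks. Of the 45 pairs, 15 had a permutation p of Pearson's r under 0.05 after Benjamini-Hochberg adjustment over the 45, and 9 by Spearman's rho. Elane and Mpo had r = 0.960 and rho = 0.956 (permutation p of r = 1e-05, the smallest that 100000 permutations can give, adjusted p = 0.00045 for both). Elane and Ctsg had r = 0.879 and rho = 0.900 (permutation, adjusted p = 0.00124 and 0.00255), and Mpo and Ctsg r = 0.866 and rho = 0.888 (permutation, adjusted p = 0.00124 and 0.00259). Without the 2 tumours farthest from the median of the first gene, r was 0.912, 0.823 and 0.805. Taken as deviations from group means, which removes group differences, the 3 values were 0.947, 0.801 and 0.772.

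S100a8 and S100a9 had r = 0.886 and rho = 0.972 (permutation, adjusted p = 0.00124 and 0.00045), and r = 0.870 without MC1 and HC3. Their 6 correlations with Elane, Mpo and Ctsg ran from 0.164 to 0.357 and none passed. Within groups the same 6 ran from 0.597 to 0.959, given as a description without a p. Not every group followed this for S100a8. HI1, the HI tumour highest in S100a8, had 0 or 1 count of Elane, Mpo and Ctsg, fewer than HI3. Across tumours without HC1 and MI1, r of the 6 pairs ran from 0.05 to 0.34. Prtn3 had within-group r of 0.156 with S100a8 and 0.198 with S100a9. Between groups, calprotectin and these 3 genes differed in opposite directions in HI against MI. In the other comparisons of 2 groups they differed in the same direction. Prtn3 had r between -0.01 and 0.57 with the other 9, and none passed. Ly6g passed with Elane (r = 0.722, rho = 0.729) and Mpo (r = 0.743, rho = 0.734) by both measures (permutation, adjusted p between 0.0366 and 0.0445), with r of 0.734 and 0.711 without the 2 farthest tumours, and did not pass with S100a8 or S100a9 (r = 0.393 and 0.376). The remaining 9 pairs that passed by r each held a late granule gene, with r from 0.676 (Mpo and Ltf) to 0.763 (Ngp and Ltf) and permutation adjusted p from 0.0366 to 0.0476. In 5 of them (Mpo with Camp, Ngp and Ltf, Ngp with Ly6g, and Ltf with S100a9) r was 0.379 to 0.550 without the 2 farthest tumours. In the others it was 0.631 to 0.773. Leaving out the farthest tumours also narrows the range of levels, so whether the 5 pairs rested on them cannot be told.

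**Figure D3:**
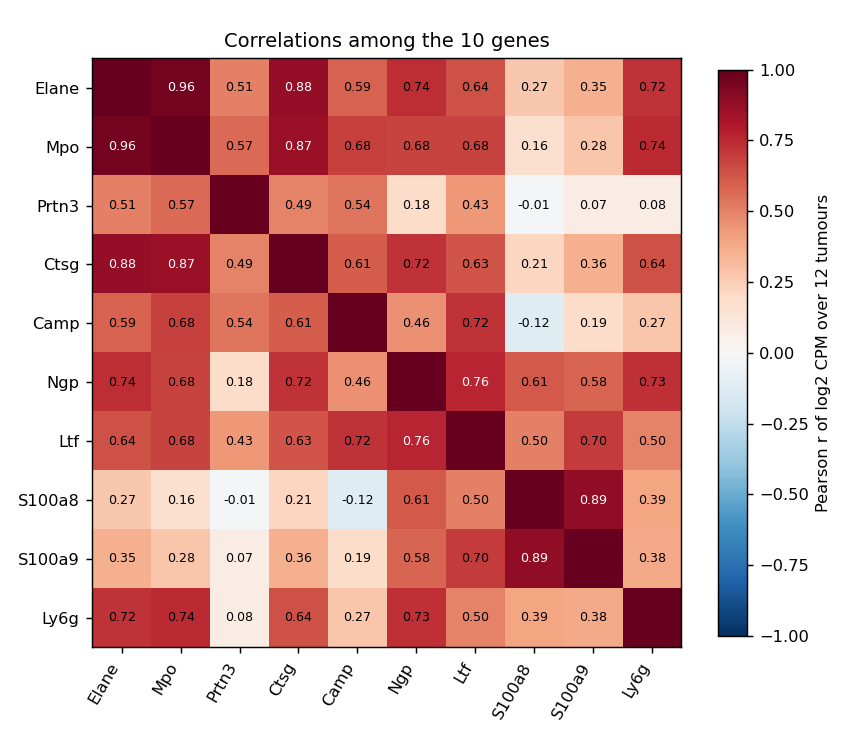
Pearson r of log2 CPM (prior count 2) over the 12 tumours for each pair of the 10 genes, from blue (negative) through white (0) to red (positive). Elane, Mpo and Ctsg form 1 block (0.87 to 0.96), and S100a8 and S100a9 another (0.89). Prtn3 lies at 0.49 to 0.57 against the first block and near 0 against S100a8 (-0.01) and S100a9 (0.07).

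S100a8 relative to Ngp and to Ly6g set 2 tumours apart, HI1 and HI2, while S100a8 relative to Ltf or Camp did not. HC3, with S100a8 at 188.4 FPKM, held 2.79 FPKM of Ltf and 0.298 of Camp. In HI1 these 3 values were 98.7, 1.87 and 0.254 FPKM, and in HI2 95.5, 1.51 and 0.546. The FPKM of S100a8 was 37.4 times that of Ngp in HI1 and 23.8 times in HI2, while HI3 had a ratio of 8.54 and the 9 tumours of the other groups 5.13 to 14.3. Counts of S100a8 per count of Ly6g were 764.5 in HI1 and 248.2 in HI2, on 2 and 6 Ly6g counts, 94.6 in HI3 and 39.9 to 110.4 in the other 9. The summed FPKM of Elane, Mpo and Ctsg was 0.0353 in HI1 and 0.0351 in HI2, against 0.296 in HI3 and 0.128 to 3.45 in the others. HI1 and HI2 therefore combined calprotectin mRNA at the level of HI3 with the lowest summed Elane, Mpo and Ctsg mRNA of the 12 tumours. These 2 sums rested on 0 or 1 count of each gene. With Prtn3 added, the sum was 1.18 FPKM in HI1, 1.12 in HI2 and 1.08 in HI3, the lowest of the 12. The other 9 tumours ran from 1.17 (HC1) to 6.47 (MI1), so HI1 and HI2 did not stand apart by that sum. Red-cell markers, which take in the globins of blood, summed to 315.2 CPM in HI1, 183.0 in HI2 and 165.7 in HI3, against 19.7 to 122.9 CPM in the other 9. Their part in these values was not tested.

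**Figure D4:**
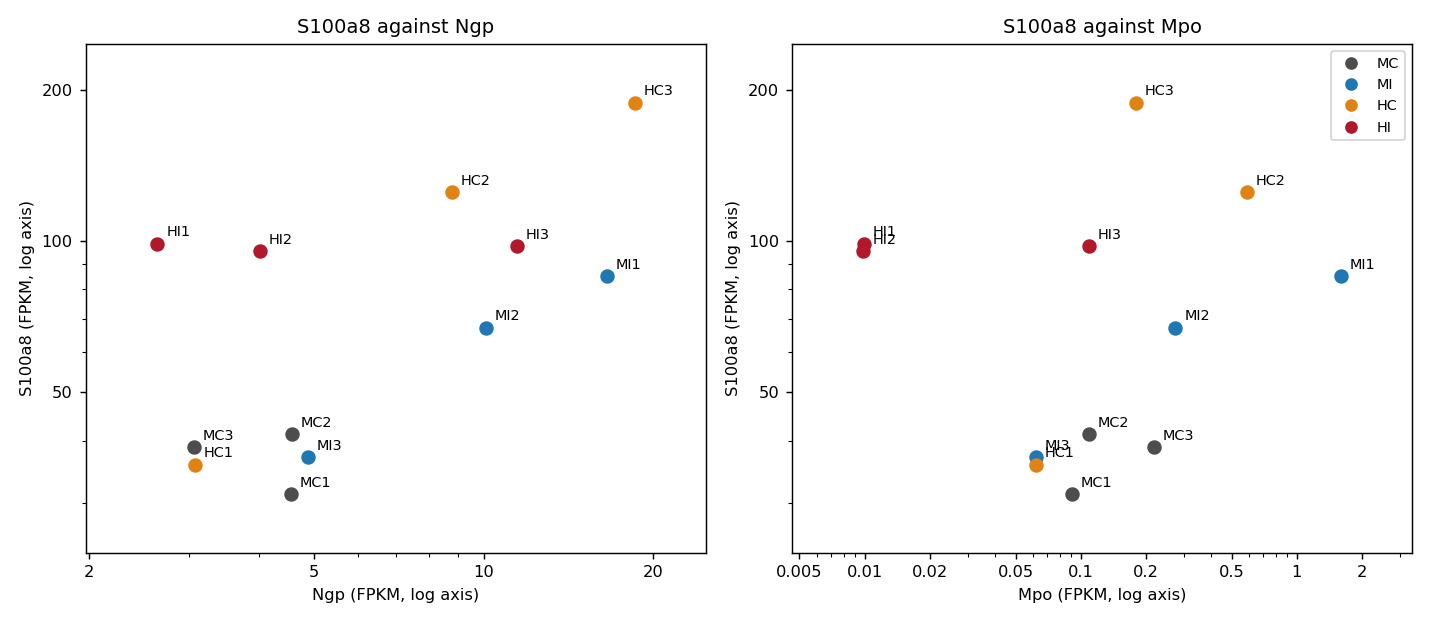
S100a8 FPKM against Ngp FPKM (left) and Mpo FPKM (right), log axes, 1 labelled point per tumour coloured by group. HI1 and HI2, at 2.64 and 4.01 FPKM of Ngp, lie to the left of HI3 at 11.4 FPKM with similar S100a8.

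Genes outside the list whose levels followed a member most closely were named by Pearson r of log2 CPM over the 12 tumours, as a description. For S100a8 these were Cstdc6 (0.963), Asprv1 (0.926), the chemokine receptor Cxcr2 (0.923), Stfa2 (0.913) and Stfa2l1 (0.912), the last 2 of the stefin family of cysteine protease inhibitors. For Ngp they were the granzyme Gzma (0.911), Ifitm6 (0.901), the peptidoglycan-binding granule protein Pglyrp1 (0.831), Stt3a (0.827) and Abca13 (0.822). Mpo was followed by Tor3a (0.929), Ube2l6 (0.923), Chst12 (0.923), Slc35a2 (0.897) and St6galnac3 (0.888), none of them a granule gene. Camp was followed by the antigen presentation genes H2-DMb2 (0.950) and Tapbp (0.902) and by Klk1 (0.916), Tmem229b (0.904) and Fam234b (0.902), and Ly6g by Anxa5 (0.905), Ehd2 (0.858), Ifit1bl2 (0.824), Ifitm6 (0.820) and Rbm10 (0.819). The nearest genes of S100a8 and Ngp thus included other neutrophil genes, while those of Mpo, at 1 to 158 counts, did not.

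Other granule genes were read from a list of 20, of which 18 were tested. In the altitude average 12 were higher and 6 lower, with a median of 0.30, and 9 had an unadjusted edgeR p under 0.05 (17.3% of all genes). edgeR called 1 (0.498% of all genes), DESeq2 6 (5.67% of all genes) and limma-voom 0. The called gene was Wfdc21, a small secreted protein of the whey acidic protein family, with a log2 difference of 1.57 (SE 0.28, edgeR adjusted p = 0.0436) and means of 1.03 CPM for MC, 1.88 for MI, 4.01 for HC and 4.28 for HI. The chitinase-like Chil3 (4.33, SE 0.95, edgeR adjusted p = 0.0702), the neutrophil collagenase Mmp8 (1.46, SE 0.33, adjusted p = 0.0764) and Anxa1 (0.27, SE 0.08, adjusted p = 0.117) did not pass. Chil3 averaged 0.665 CPM in MC and 65.3 in HC, and is made by macrophages as well.

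Of 24 other genes of the mature neutrophil, 21 were tested, 18 were higher and 3 lower in the altitude average, and the median was 0.49. Of these, 10 had an unadjusted edgeR p under 0.05, against 17.3% of all genes. edgeR called 1, against 0.498% of all genes, the CXC chemokine receptor Cxcr1 (log2 difference 2.17, SE 0.37, adjusted p = 0.0401). DESeq2 called 5, against 5.67% of all genes, and limma-voom 0. Cxcr1 was scarce, with 0.0509 to 0.252 CPM in the 6 ambient tumours and 0.364 to 0.772 in the 6 chamber tumours, so these did not overlap. The stefin Stfa2 (2.20, SE 0.50), the histamine-forming enzyme Hdc (0.77, SE 0.24) and the protease inhibitor Slpi (-0.91, SE 0.29) had edgeR adjusted p of 0.0764, 0.154 and 0.151.

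Of the 7 chemokines and colony-stimulating factors that draw or expand neutrophils, 6 were tested and all 6 were higher in the altitude average, with a median of 1.09. An unadjusted edgeR p under 0.05 was found for 4, against 17.3% of all genes, and edgeR called 1, against 0.498%. This was Cxcl1, which averaged 8.86 CPM for MC, 12.2 for MI, 29.5 for HC and 37.2 for HI (log2 difference 1.68, SE 0.24, edgeR adjusted p = 0.0257). DESeq2 called 4 of the 6, against 5.67% of all genes, and limma-voom 0. Csf3, which encodes granulocyte colony-stimulating factor, differed by 0.96 (SE 0.20, edgeR adjusted p = 0.0656), and Cxcl2 by 1.79 (adjusted p = 0.133), while Cxcl5, with means of 8.02 CPM in the ambient and 19.1 CPM in the chamber groups, had an adjusted p of 0.143. The calls of Wfdc21 and Cxcr1 ended when any single tumour other than MI2 or HI3 was left out, with edgeR adjusted p up to 0.132, and that of Cxcl1 without MC1, MC2, MC3, MI1 or MI3, with adjusted p up to 0.0994.

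Genes that act on or around the members, in the 5 lists that follow, gave 0 calls by edgeR in the altitude average, where 17.3% of all genes had an unadjusted p under 0.05 and DESeq2 called 5.67%. Among 11 tested genes that activate or inhibit granule proteases, 6 were higher, 4 had an unadjusted p under 0.05, DESeq2 called 3 and limma-voom 0. Ctsc, which encodes the dipeptidyl peptidase that activates the granule serine proteases Elane, Prtn3 and Ctsg, averaged 636.5 CPM in the ambient and 425.5 in the chamber groups (-0.57, SE 0.16, edgeR adjusted p = 0.122). The inhibitors Serpina3n (1.58, SE 0.56) and A2m (0.86, SE 0.19) had edgeR adjusted p of 0.184 and 0.0731.

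Of 6 calprotectin receptor and signalling genes, 2 were higher, 2 had an unadjusted p under 0.05 (17.3% of all genes), DESeq2 called 1 (5.67% of all genes) and limma-voom 0. The lipopolysaccharide receptor Tlr4 differed by -0.32 and its adaptor Myd88 by -0.16, its partner Ly96 by -0.21 and the scavenger receptor Cd36 by 1.28, with edgeR adjusted p of 0.367, 0.280, 0.505 and 0.0978. Cd36 is also a fat cell gene, and the fat cell markers summed to 36.8 to 147.3 CPM in the ambient tumours and 37.3 to 541.6 CPM in the chamber tumours.

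Of the 10 tested granulocyte transcription factors, 6 were higher, 4 had an unadjusted p under 0.05, against 17.3% of all genes, and neither DESeq2 (5.67% of all genes) nor limma-voom called any. Cebpd differed by 0.35, Klf6 by 0.32, Junb by 0.24 and Spi1, which encodes PU.1, by -0.26, with edgeR adjusted p of 0.192, 0.142, 0.203 and 0.282. Of 10 tested other S100 genes, 7 were higher, 5 had an unadjusted p under 0.05, DESeq2 called 2 and limma-voom 0, against the same shares of all genes. They included S100a11 (0.29, edgeR adjusted p = 0.0717), S100a14 (0.50, adjusted p = 0.133), S100a4 (0.39, adjusted p = 0.181) and S100b (-1.42, adjusted p = 0.271). Of 6 tested other Ly6 genes, 3 were higher, 1 had an unadjusted p under 0.05, DESeq2 called 1 and limma-voom 0, again against those shares, with Ly6e at -0.27 (edgeR adjusted p = 0.140) and Ly6c2, a monocyte marker, at -0.33 (adjusted p = 0.681).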

How the data were processed

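Total RNA of 12 tumours was sequenced as read pairs of 150 bases, per the labels' protocols. The submitters' processing notes name HISAT2 2.1.0 and HTSeq 0.11.2, besides fastp 0.20.1, R 3.5.1 and DESeq2 1.22.2, and the build GRCm39. Neither annotation nor strandedness of counting is given in the sources used here. The authors deposited raw whole-number counts per gene, and the authors' FPKM table holds the same genes scaled by gene length and library total, since 100% of 229103 values above 0 implied a whole gene length within 0.01 base.

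The test was edgeR 4.0.16 under R 4.3.3 (quasi-likelihood, filterByExpr, TMM factors, 12 libraries in 1 fit with a mean per group), with Benjamini-Hochberg adjustment over 15269 genes and calls under 0.05. The 6 comparisons were HC against MC, HI against MI, MI against MC, HI against HC, the altitude average and the interaction. CPM are TMM-scaled, with mean ± SD over 3 mice, and an exact test of 3 against 3 could not give p below 0.1. DESeq2 1.42.0, limma 3.58.1 (voom, and log2 of FPKM plus 0.1 or 1), DESeq2 size factors, other filters on low counts, a replicate block, fits of 2 groups and leaving out each tumour were the alternatives. An adjusted p that DESeq2 left undefined counts as not called. Scripts were tested on simulated data. Same-numbered MC and HC tumours deviated together (correlations 0.278, 0.153 and 0.209 over genes). In each other pair of groups at least 1 same-numbered pair was at or below 0.1. No label names a batch.

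The 10 genes and all lists were chosen with earlier results of these data known. Named beyond the 10 are the 5 genes most correlated with Mpo, Camp, Ngp, S100a8 and Ly6g, and up to 4 of each list with the smallest p in the altitude average, except markers, which were named where a result met them. Promoters are from RefSeq (GRCm38.p6), an older build than the counts, so gene positions are not given.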

Additional observations from a re-analysis of the deposited data

How the results depend on the processing

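Of the 60 log2 differences (10 genes in 6 comparisons), recomputed in 1262 alternative values, 1208 kept their direction and side of the threshold, 6 became called and 48 turned direction, 37 of these where the difference was at most 0.3 in size. None of the 40 group means moved by 1 SD with plain CPM. The edgeR fit of all 12 libraries called 0 members in every comparison. DESeq2 called 1 in HC against MC (2.06% of all genes), 2 in HI against MI (2.5%) and 1 in the altitude average (5.67%). In the average, edgeR called 1 member without HC1 and MI1, where it called 4 of 15456 genes. Over the 12 edgeR fits that left out 1 tumour it called 0 to 1, the 1 without HC1, where it called 9 of 15551 genes. The replicate block left every count of members called at 0, and turned S100a9 in HI against HC to 0.0695. The causes of the turns below were not tested.

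Without HC1 and MI1, Prtn3 in HC against MC was 0.0058, Camp in HI against HC -0.23, Ltf 0.10 in HI against MI and 0.43 in the average, and Ly6g in MI against MC -0.63. In HI against HC, limma-voom and log2(FPKM + 0.1) gave 0.0103 and 0.0558 for Ltf, 0.0115 and 0.0411 for S100a8, and 0.33 and 0.34 for S100a9. For the S100a9 interaction they gave 0.0527 and 0.0910, and for Ly6g in MI against MC -0.0882 and -0.0624. With log2(FPKM + 1), S100a8 and S100a9 in HI against HC were 0.0367 and 0.33, and the S100a9 interaction 0.0857.

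Leaving out 1 tumour at a time gave -0.17 to 1.48 for Mpo, -0.39 to 0.21 for Prtn3 and -0.32 to 0.75 for Ltf in HC against MC. In HI against HC it gave -0.33 to 0.27 for Prtn3, -0.89 to 1.56 for Camp, -1.62 to 0.0192 for Ngp, -0.69 to 0.45 for Ltf, -0.71 to 0.28 for S100a8 and -0.57 to 0.27 for S100a9. It gave -0.999 to 0.10 for Ltf in HI against MI, -0.64 to 0.53 for Ly6g in MI against MC, and -1.47 to 0.98 for the Camp interaction. In the average it gave -0.16 to 0.50 for Ngp, -0.40 to 0.21 for Ltf and -0.24 to 0.64 for Ly6g. Elane, Mpo, Ctsg and Ly6g rested on fewer than 60 counts in all tumours but MI1, so their depth limits every comparison.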
